A study of Mus musculus with 19 samples.

Results

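The genes described here are 10 interferon-stimulated genes measured in crypts of the mouse small intestine: *Isg15*, *Ifit1*, *Ifit2*, *Ifit3*, *Oas1a*, *Ddx58*, *Zbp1*, *Stat2*, *Irf9*, and *Irf7*. They were given as a list and matched by symbol to the Ensembl genes of the expression files. Each matched 1 gene, and all 10 were among the 17875 genes, of 55487 listed, that had enough counts to be tested.

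Interferons are secreted proteins that warn cells of viral nucleic acid. When type I or type III interferon binds its receptor, the kinases JAK1 and TYK2 phosphorylate STAT proteins, STAT2 among them, which join IRF9 in a complex that enters the nucleus and turns on many genes through a DNA motif called the interferon-stimulated response element. The gut epithelium keeps some of these genes on without infection, and type III interferon is a main antiviral signal of its epithelial cells. Of the 10 genes, *Isg15*, *Ifit1*, *Ifit2*, *Ifit3*, and *Oas1a* encode antiviral effectors, *Ddx58* and *Zbp1* encode sensors of foreign or unusual nucleic acid, and *Stat2*, *Irf9*, and *Irf7* encode transcription factors of the pathway itself.

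RNA was sequenced from crypts of 19 mice labelled C57BL/6, 1 library per mouse, in 4 groups: 5 *Nt*+/+ mice and 4 *Nt*-/- mice fed chow ad libitum, and 5 *Nt*+/+ mice and 5 *Nt*-/- mice fasted for 48 hours with water. *Nt*-/- mice lack neurotensin, a peptide hormone that enteroendocrine cells of the gut release after a meal, in the whole body. The study also kept both genotypes with an *Lgr5*-EGFP-IRES-CreERT2 reporter allele, which marks crypt stem cells, and the labels give the *Nt* genotype without saying whether the sequenced mice carried it. Each group had 3 mice labelled female. The ages lay between 10 and 16 weeks, and by the study's account fed mice came from the litters of the fasted ones and were of like sex and age. The design asks what fasting and the loss of neurotensin each do to the crypt, alone and together. Crypts were shaken off the proximal part of the small intestine after treatment with EDTA, so the preparation holds other cells too, and in such bulk RNA fewer cells of a type and less RNA per cell cannot be told apart.

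The total count per mouse ranged from 9059457 to 35068711. *Nts*, which encodes neurotensin, was at 4.98–8.59 CPM (the count scaled to a common library size) in the 10 *Nt*+/+ mice and at 0.144–0.793 CPM in the 9 *Nt*-/- mice. A single mouse, replicate 5 of the fasted *Nt*+/+ group, carries a genotype label that contradicts its title. It was grouped by title, and its *Nts* level was 5.43 CPM. Epithelial markers were high in all mice (*Epcam*, 884–1122 CPM). Other cells left RNA too: the leukocyte gene *Ptprc* had a mean of 37.8 CPM and the lymphocyte gene *Gzma* one of 43.9 CPM. Of the listed markers, 4 of 6 for macrophages and dendritic cells, 4 of 5 for fibroblasts, and 1 of 3 for endothelium could be tested. *Adgre1* and *Fcgr3* of macrophages, *Pdgfra* of fibroblasts, and *Cdh5* and *Kdr* of endothelium were too low, with at least 1 mouse at 0 for each.

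To show what the genes share in sequence, the 300 bases around each start site (250 before it and 50 after it) in the RefSeq annotation of GRCm38.p6 were searched for the core of the interferon-stimulated response element, which is GAAA, then 2 bases of any kind, then GAAA, or on the opposite strand TTTC, 2 bases, TTTC. A window was given for 9 of the 10 genes, all but *Zbp1*. The motif was found in 6 of these 9, against 3.99% of the 27025 genes with a window (3.44% of 32851 windows). Of the other genes of the pathway, 10 of 12 genes induced by interferon-γ, 11 of 20 interferon genes, and 16 of 39 other effectors with a window held it, and 0 of 5 receptors did. *Isg15* held 3 overlapping matches, *Ifit1* and *Ifit3* 2 each, *Oas1a* 2 that overlap, *Stat2* 1, and *Ddx58* 1 just after its start site, whereas *Ifit2*, *Irf7*, and *Irf9* held none in this window. A match is a description of the letters and not of binding. The stretches with the matches before the start site are given 5′ to 3′ on the strand of the gene, with the matched bases in capitals: *Ifit1* at chr19:34640765-34640833 (plus strand), *Ifit3* at chr19:34583353-34583436 (plus), *Isg15* at chr4:156200855-156200916 (minus), *Oas1a* at chr5:120907526-120907565 (minus), and *Stat2* at chr10:128270256-128270305 (plus).
Ifit1: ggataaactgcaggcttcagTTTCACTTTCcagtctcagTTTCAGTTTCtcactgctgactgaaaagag
Ifit3: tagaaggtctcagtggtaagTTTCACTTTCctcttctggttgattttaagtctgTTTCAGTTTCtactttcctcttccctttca
Isg15: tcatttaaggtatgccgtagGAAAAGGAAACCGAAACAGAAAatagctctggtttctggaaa
Oas1a: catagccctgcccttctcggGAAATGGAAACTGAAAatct
Stat2: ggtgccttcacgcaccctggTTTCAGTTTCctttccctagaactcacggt

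The pair of matches in *Ifit1* starts 104 bases before its start site and the pair in *Ifit3* starts 156 bases before its own. In both genes the first match is TTTCACTTTC and the second is TTTCAGTTTC, and the single match of *Stat2*, which begins 222 bases before the start site, has the same letters as the second. The capitals in *Isg15* begin 78 bases before the start site and run through its 3 matches without a break. The 2 overlapping matches of *Oas1a* begin 20 bases before its start.

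The levels of the 10 genes spanned a wide range when expressed per length, as CPM per kilobase of effective transcript length, the only scale on which levels of different genes are compared here. Over the 19 mice, the highest were *Ddx58* at 17.7 ± 2.84 CPM per kb (SD, n = 19), *Irf7* at 17.3 ± 5.26, *Stat2* at 16.1 ± 3.78, and *Irf9* at 14.1 ± 2.76. Neighbors within these 4 genes differed by less than the spread between mice. *Zbp1* at 7.40 ± 4.38 and *Oas1a* at 7.32 ± 3.59 CPM per kb came next and did not differ from each other beyond their spread. *Ifit1* at 3.26 ± 2.06, *Isg15* at 3.25 ± 1.43, and *Ifit3* at 1.95 ± 0.872 CPM per kb were also within the spread of their neighbors, and *Ifit2*, at 0.675 ± 0.162, was the lowest. The order thus ran from a sensor and the transcription factors of the pathway down to the effectors, with *Zbp1* and *Oas1a* between.

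The counts behind these levels set how firmly each gene can be read. *Isg15* had 9–93 counts per mouse, *Ifit2* 17–89, and *Ifit3* 19–142, whereas *Ddx58* had 475–1677 and *Stat2* 439–1547. Reads were also shared with near copies: of all 100-base stretches in the transcripts of *Oas1a*, 40.9% occur in *Oas1g* as well, and 31.7% of those of *Ifit3* occur in *Ifit3b*. The share was 3.29% for *Ifit1*, with *Ifit1bl2*, and 0.411% for *Irf9*, with its neighbor *Rnf31*. Values of *Oas1a* and *Ifit3* are therefore uncertain to the extent that RSEM divided reads between the copies.

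Fasting lowered 1 of the 10 genes in *Nt*+/+ mice, *Zbp1*, which encodes a sensor of Z-form nucleic acid that can set off inflammatory cell death. *Zbp1* was at 18.3, 16.8, 17.0, 20.2, and 10.3 CPM in the 5 ad libitum–fed *Nt*+/+ mice and at 5.27, 6.75, 6.07, 5.71, and 3.98 CPM in the 5 fasted ones. Each fasted mouse was below each fed mouse. The mean went from 16.5 ± 3.75 to 5.56 ± 1.04 CPM (SD, n = 5), a log2 fold change of −1.57 (SE 0.30, edgeR quasi-likelihood test, Benjamini-Hochberg adjusted p = 0.000859), or 0.336-fold. Among all genes tested, 21.6% were called in this comparison, 10.4% of all genes as lower, 14.6% had groups that did not overlap, and 6.97% had every fasted mouse below every fed mouse. *Zbp1* (ENSMUSG00000027514) lies on chromosome 2 at 173206612–173218923, minus strand, of GRCm38.

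**Figure D1:**
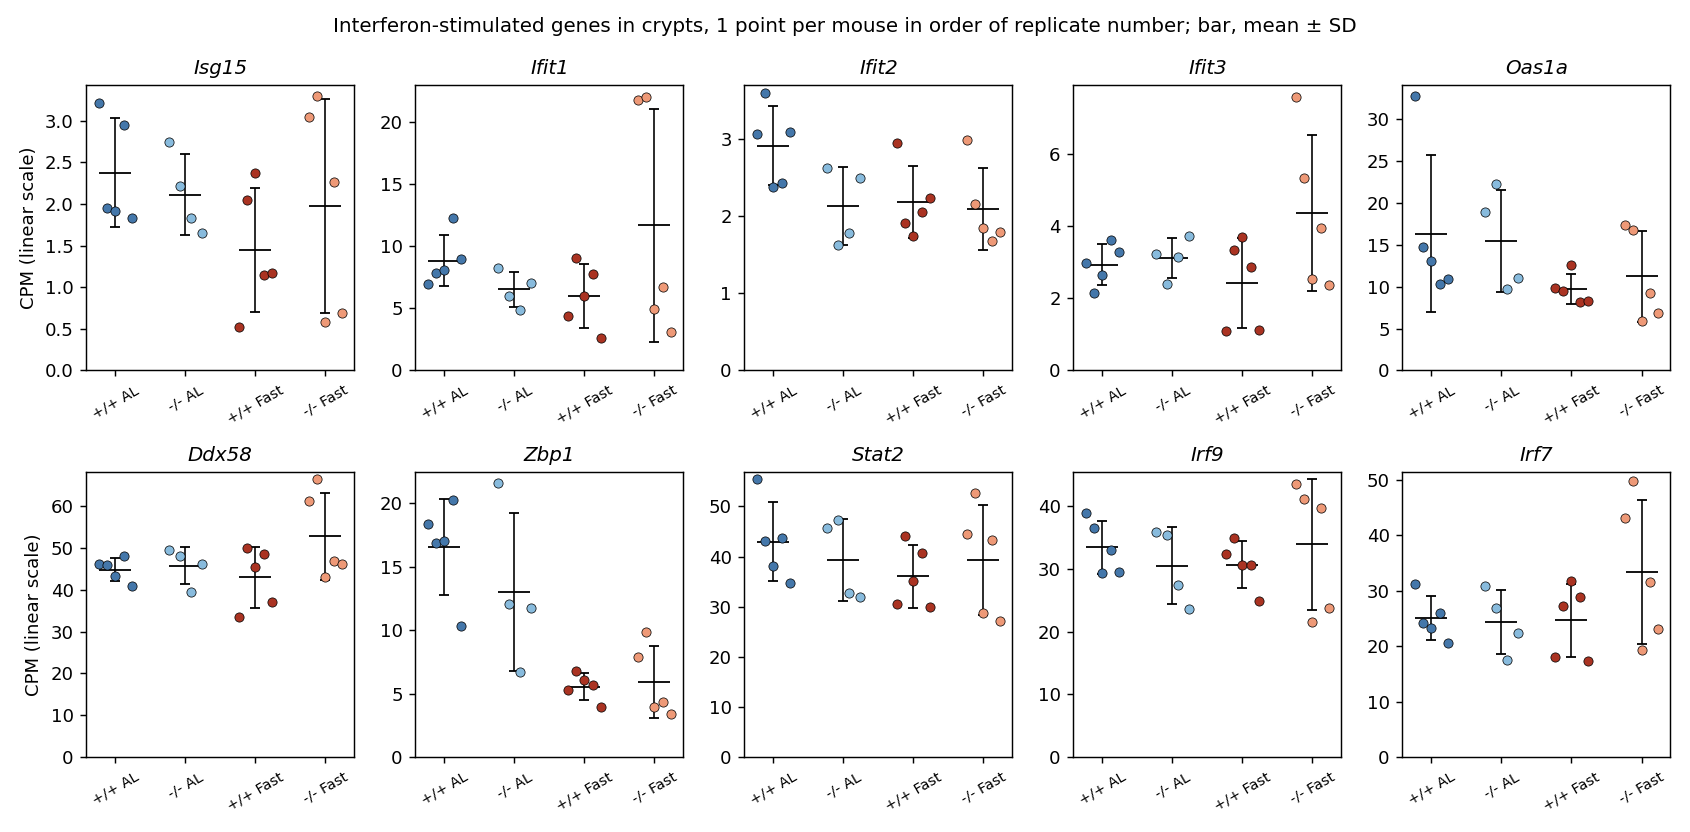
Level of each gene in each mouse, in CPM on a linear axis from 0 (AL, ad libitum; Fast, fasted 48 hours; each point is 1 mouse in order of replicate number, and the bar is the mean ± SD of 4 or 5 mice). *Zbp1* was lower in all 5 fasted *Nt*+/+ mice (3.98–6.75 CPM) than in all 5 fed ones (10.3–20.2 CPM), and the fasted *Nt*-/- group had a pair of mice, replicates 1 and 2, with *Ifit1* at 21.8 and 22.0 CPM against 3.06–6.71 CPM in the others.

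The other 9 genes did not pass the test in *Nt*+/+ mice, although each had a log2 fold change below 0. The median over the 10 genes was −0.35, beside −0.01 over all genes tested, of which 50.9% were below 0. At an unadjusted p under 0.05, edgeR gave 2 of the 10 genes, *Zbp1* and *Oas1a*, where 34.1% of all genes met that level.

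*Oas1a* encodes an oligoadenylate synthetase, which makes the second messenger that activates the RNA-cutting enzyme RNase L. It was at 32.8, 14.8, 13.1, 10.3, and 10.9 CPM in fed and at 9.91, 9.48, 12.7, 8.22, and 8.34 CPM in fasted *Nt*+/+ mice. The first fed mouse stood far above the others, and 4 of the 5 fasted mice were below every fed mouse. The log2 fold change was −0.75 (SE 0.34, edgeR adjusted p = 0.123) and went to −0.33 (adjusted p = 0.475) without fed *Nt*+/+ replicate 1, over a range of −0.88 to −0.33 when each mouse was left out.

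*Isg15*, a ubiquitin-like protein that is joined to other proteins during the response, was at 3.21, 1.96, 1.92, 2.94, and 1.84 CPM in fed and at 0.521, 2.05, 2.37, 1.14, and 1.18 CPM in fasted *Nt*+/+ mice. The groups overlapped, with fasted replicates 2 and 3 inside the range of the fed mice. Its log2 fold change was −0.71 (SE 0.42, edgeR adjusted p = 0.245).

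The IFIT proteins bind viral RNA and block its translation. *Ifit1* was at 6.96, 7.83, 8.12, 12.3, and 8.99 CPM in fed and at 4.40, 9.07, 5.97, 7.77, and 2.63 CPM in fasted *Nt*+/+ mice, and *Ifit3* was at 2.14–3.60 CPM in fed and at 1.10, 3.34, 3.70, 2.86, and 1.12 CPM in fasted ones. Both were below every fed mouse in fasted replicates 1 and 5, as was *Ifit1* in replicate 3, and the remaining fasted mice were within the fed range or, for *Ifit3* in replicate 3, just above it. Their log2 fold changes were −0.57 (SE 0.43, edgeR adjusted p = 0.379) and −0.27 (SE 0.34, adjusted p = 0.62). *Ifit2* was at 2.38–3.60 CPM in fed and at 1.75–2.95 CPM in fasted mice, with 4 of 5 fasted mice below every fed mouse and a log2 fold change of −0.42 (SE 0.20, adjusted p = 0.151).

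The sensor *Ddx58*, which encodes RIG-I, and the 3 transcription factor genes had the smallest differences. Their log2 fold changes in *Nt*+/+ mice lay between −0.26 for *Stat2* and −0.02 for *Irf7*, with edgeR adjusted p from 0.335 to 0.958. The 95% interval of *Ddx58* was −0.32 to 0.19, the narrowest of the 10, and that of *Isg15* was −1.58 to 0.16. Fasted and fed mice overlapped in all 4 genes.

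In *Nt*-/- mice *Zbp1* was again the 1 gene of the 10 that passed the test, where 25.2% of all genes were called and 12.6% were called as lower. It was at 21.5, 12.01, 6.74, and 11.7 CPM in the 4 ad libitum–fed *Nt*-/- mice and at 7.85, 9.87, 3.99, 4.34, and 3.38 CPM in the 5 fasted ones. Fasted replicates 3, 4, and 5 were below every fed mouse, and replicates 1 and 2 were above fed replicate 3, so the groups overlapped. The mean went from 13.002 ± 6.18 (SD, n = 4) to 5.89 ± 2.83 CPM (SD, n = 5), a log2 fold change of −1.17 (SE 0.31, edgeR adjusted p = 0.00916), or 0.443-fold. The call rested on the highest fed mouse: without fed *Nt*-/- replicate 1 the log2 fold change was −0.81 (adjusted p = 0.0648), and in the 3 females of each group it was −0.88 (adjusted p = 0.134).

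**Figure D2:**
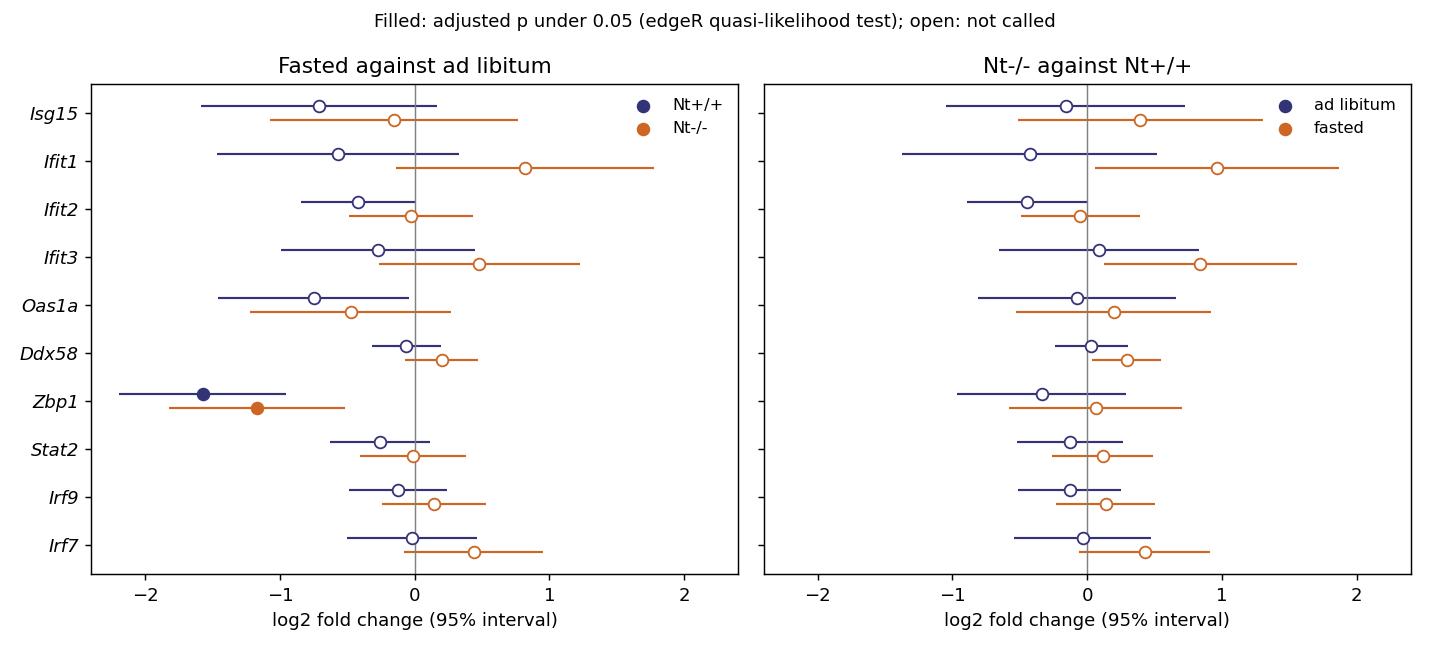
Log2 fold change of the 10 genes with its 95% interval, for fasted against ad libitum–fed mice of each genotype (left) and for *Nt*-/- against *Nt*+/+ mice of each diet (right). Filled points, adjusted p under 0.05 by edgeR's quasi-likelihood test, are *Zbp1* with fasting in *Nt*+/+ (−1.57) and *Nt*-/- mice (−1.17), and every other point is open.

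The remaining genes showed no common direction with fasting in *Nt*-/- mice. Of the 10 genes 5 were above 0 and 5 below, and the median log2 fold change was 0.06, beside −0.02 over all genes. At an unadjusted p under 0.05 edgeR gave 1 gene, *Zbp1*, against 36.5% of all genes.

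*Ifit1* had the highest log2 fold change of the 10, at 0.82 (SE 0.46, edgeR adjusted p = 0.209). It was at 8.23, 6.01, 4.91, and 7.03 CPM in fed *Nt*-/- mice and at 21.8, 22.0, 4.92, 6.71, and 3.06 CPM in fasted ones. Fasted replicates 1 and 2 were above every fed mouse and the other 3 fasted mice were not, so the SD of the fasted group, 9.40 CPM, was close to its mean of 11.7 CPM. Without fasted replicate 1 the value was 0.43, and without replicate 2 it was 0.48. In the females alone, where these 2 mice were 2 of 3 fasted *Nt*-/- mice, *Ifit1* was called at 1.39 (adjusted p = 0.0416).

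The same pair of mice led the group in *Ifit3* and *Irf7*. *Ifit3* was at 3.22, 2.38, 3.13, and 3.73 CPM in fed and at 7.58, 5.33, 2.54, 3.95, and 2.38 CPM in fasted *Nt*-/- mice. *Irf7*, which encodes the factor that amplifies interferon-α production, was at 30.9, 26.9, 17.5, and 22.4 CPM in fed and at 43.1, 49.8, 19.3, 31.6, and 23.0 CPM in fasted ones. In both genes 3 of 5 fasted mice were above every fed mouse, and the log2 fold changes were 0.48 (SE 0.36, edgeR adjusted p = 0.364) and 0.44 (SE 0.25, adjusted p = 0.212). *Oas1a* stood at −0.48 (SE 0.36, adjusted p = 0.366), *Ddx58* at 0.20 (SE 0.13, adjusted p = 0.287), and *Ifit2*, *Isg15*, *Irf9*, and *Stat2* between −0.15 and 0.14.

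Cell type markers moved with fasting beside these values. The summed level of 6 villus enterocyte markers was 2927–6020 CPM in fed and 6378–13155 CPM in fasted *Nt*+/+ mice, and 4522–6967 and 11562–15983 CPM in *Nt*-/- mice. In edgeR's test 5 of the 6 rose in *Nt*+/+ and 6 of 6 in *Nt*-/- mice, and 3 of 5 markers of stem and dividing cells fell in each genotype, where 11.2% and 12.5% of all genes rose and 10.4% and 12.6% fell. The other 2 markers of stem and dividing cells were not called in either genotype. In *Nt*+/+ mice both had a log2 fold change above 0, up to 0.63, and in *Nt*-/- mice 1 of the 5 was above 0, at 0.12. Of 7 markers of T cells and intraepithelial lymphocytes, 1 rose in *Nt*+/+ and 2 in *Nt*-/- mice. The part of these shifts in the levels of the 10 genes was not tested.

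None of the 10 genes passed the test between *Nt*-/- and *Nt*+/+ mice fed ad libitum, the comparison that asks about loss of neurotensin alone. EdgeR called 0 of 10, with 0 at an unadjusted p under 0.05 (1.67% of all genes), and DESeq2's Wald test and edgeR's likelihood ratio test also called 0 and gave 0 at that level. Among all 17875 genes 1, or 0.00559%, was called, *Nts* itself. The lowest log2 fold changes of *Nt*-/- against *Nt*+/+ mice were −0.45 for *Ifit2* (SE 0.21, unadjusted p = 0.0508, adjusted p = 1) and −0.43 for *Ifit1* (SE 0.45), and the highest was 0.09 for *Ifit3* (SE 0.36). The median was −0.13, beside 0.00 over all genes, and the 2 groups overlapped in all 10 genes (groups did not overlap in 0.694% of all genes). The 95% intervals ran from −0.24 to 0.30 for *Ddx58* and from −1.37 to 0.52 for *Ifit1*, so the precision differed widely between the genes.

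In fasted mice none of the 10 genes passed the test between genotypes, and 9 of them had a log2 fold change above 0 without neurotensin. EdgeR called 0 of 10, where 0.00559% of all genes were called, again *Nts* alone, and the other tests, DESeq2's Wald test and edgeR's likelihood ratio test, called 0 as well. At an unadjusted p under 0.05 each of these 3 tests gave 3 of 10, against 9.14% of all genes in the quasi-likelihood fit. DESeq2 gave no adjusted p for *Ifit2*, *Ifit3*, and *Isg15* here. The groups overlapped in all 10 genes, where 1.56% of all genes had groups that did not. The median log2 fold change was 0.24, beside −0.01 over all genes, of which 47.3% were above 0. This comparison shares the fasted *Nt*+/+ mice with the fasting comparison above, so their low replicates 1 and 5 enter both.

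The 3 genes were *Ifit3*, *Ddx58*, and *Ifit1*. *Ifit3* was at 2.42 ± 1.24 CPM (SD, n = 5) in fasted *Nt*+/+ and at 4.36 ± 2.16 CPM (SD, n = 5) in fasted *Nt*-/- mice, a log2 fold change of 0.84 (SE 0.34, edgeR adjusted p = 0.455), and 3 of 5 *Nt*-/- mice were above every *Nt*+/+ mouse. *Ddx58* was at 33.5, 49.9, 45.5, 48.6, and 37.1 CPM in *Nt*+/+ and at 61.0, 66.5, 43.0, 46.9, and 46.1 CPM in *Nt*-/- mice, a log2 fold change of 0.29 (SE 0.12, adjusted p = 0.464). *Ifit1* went from 5.97 ± 2.57 to 11.7 ± 9.40 CPM, a log2 fold change of 0.96 (SE 0.43, adjusted p = 0.507).

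For *Ddx58* and *Ifit1* only *Nt*-/- replicates 1 and 2 were above the whole *Nt*+/+ group. Leaving out *Nt*-/- replicate 1 brought *Ifit1* to 0.58 and *Ifit3* to 0.51, and leaving out replicate 2 brought *Ddx58* to 0.20. *Zbp1*, the gene that fell with fasting, was at 5.56 ± 1.04 and 5.89 ± 2.83 CPM in the fasted genotypes (log2 fold change 0.06, SE 0.31, 95% interval −0.58 to 0.70).

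The effect of fasting was then compared between the genotypes by an interaction term. EdgeR called 0 of the 10 genes and 0 of all genes, and DESeq2's Wald test and edgeR's likelihood ratio test also called 0 of the 10. At an unadjusted p under 0.05 each gave 1 of 10, *Ifit1*, where the share over all genes was 2.71% in edgeR's quasi-likelihood test. The log2 fold change of *Ifit1* with fasting was −0.57 in *Nt*+/+ and 0.82 in *Nt*-/- mice, neither of which passed the test, and their difference was 1.39 (SE 0.63, unadjusted p = 0.039, adjusted p = 1). All 10 genes had a difference above 0, where 48% of all genes did. The differences ran from 0.24 for *Stat2* to 1.39, with a median of 0.40 (−0.01 over all genes). *Zbp1* had a difference of 0.40 (SE 0.43, 95% interval −0.50 to 1.30). The effect of fasting on these genes was therefore not shown to differ between the genotypes.

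Within groups, the genes varied together from mouse to mouse. After the group mean of log2 CPM was subtracted, the 45 pairs of genes had a median Pearson r of 0.72 over the 19 mice, and 30 pairs were above 0.6. Both genes of a pair were read from the same 19 libraries, and these correlations are given as a description with no p. They were not computed for each group alone, and the fasted *Nt*-/- mice, whose deviations were the widest, weigh most in them. The closest pairs were *Irf7* and *Ddx58* (r = 0.91), *Irf9* and *Stat2* (r = 0.89), whose products act in 1 complex, and *Irf7* and *Stat2* (r = 0.88). *Irf7* had the highest mean r with the other 9 genes, 0.75.

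*Ifit2* stood apart from the rest. Its mean r with the other 9 genes was 0.16 and its highest, with *Zbp1*, was 0.34, while among the pairs without *Ifit2* the lowest was also 0.34, between *Ifit3* and *Oas1a*. It was near 0 with *Ifit3* (r = −0.0008) and *Isg15* (r = −0.02), both of them effectors, and *Ifit1*, *Ifit2*, and *Ifit3* lie in the same gene cluster on chromosome 19. It had the lowest level of the 10 per length and 17–89 counts per mouse, and its window held no match to the motif. Low counts or a missing motif were also found in other genes of the 10. *Isg15* had 9–93 counts per mouse and a mean r of 0.67. Its SD of log2 CPM within groups was 0.74, against 0.29 for *Ifit2*, so the 2 genes were not alike in spread. *Irf7* and *Irf9* also held no match, and their mean r was 0.75 and 0.66. Why *Ifit2* stood apart was not tested.

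**Figure D3:**
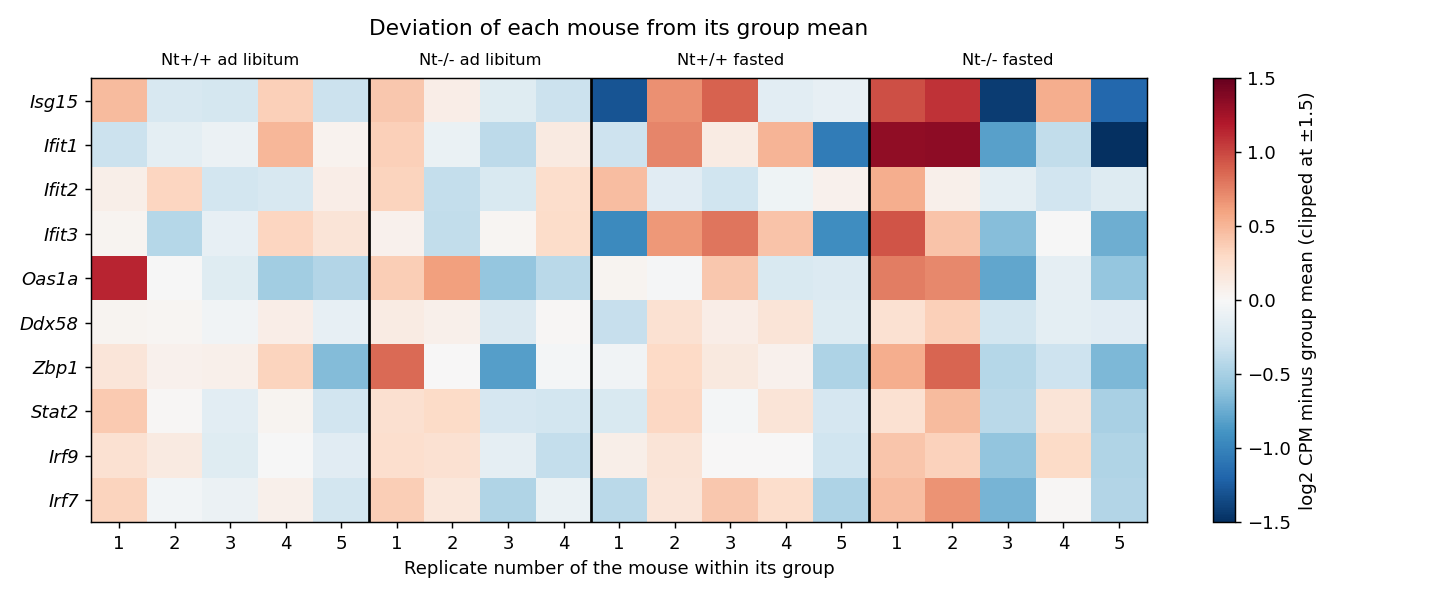
Deviation of each mouse from its group mean in log2 CPM, with 1 column per mouse, 1 line per gene, and colors limited to ±1.5. In the fasted *Nt*-/- group replicates 1 and 2 were above the group mean for all 10 genes and replicates 3 and 5 below it for all 10.

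The genes differed in how far they swung within groups. The SD of the residual log2 CPM was 0.78 for *Ifit1*, 0.74 for *Isg15*, 0.58 for *Ifit3* and *Oas1a*, and 0.52 for *Zbp1*. It was 0.41 for *Irf7*, 0.31 for *Irf9* and *Stat2*, 0.29 for *Ifit2*, and 0.21 for *Ddx58*. Effectors thus varied more between mice of 1 group than the transcription factors and *Ddx58*, with *Ifit2* as the exception among the effectors. The sampling error of low counts is part of the spread of *Isg15* and *Ifit3*.

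The widest group was fasted *Nt*-/- mice. The mean deviation over the 10 genes was 0.63 and 0.62 log2 units in replicates 1 and 2 and −0.60 and −0.62 in replicates 3 and 5, with replicate 4 at −0.03. Replicates 1, 2, and 4 are labelled female, replicate 3 male, and replicate 5 carries no sex label. In the other groups the mean deviation stayed between −0.38 and 0.33. Fasted *Nt*-/- mice therefore weigh heavily in every within-group r given here, including those with cell type markers and with genes outside the list. Fasted *Nt*+/+ replicate 5, the mouse whose labels disagree, was the lowest of its group at −0.38, and replicate 1 followed at −0.28.

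Cell type markers were set beside the 10 genes in the same mice. The within-group Pearson r of the mean standardized level of the 10 genes with the summed marker level was 0.01 for T cells and intraepithelial lymphocytes, 0.20 for leukocytes in general, −0.01 for villus enterocytes, −0.42 for stem and dividing cells, and 0.42 for epithelium (n = 19 mice). It was −0.54 for the 3 plasmacytoid dendritic cell markers and −0.65 for the fibroblast markers, which summed to 0.384–5.65 CPM, and −0.09 for the total count. The plasmacytoid sum was mostly *Tcf4* (mean 32.1 CPM), with *Ccr9* at 6.7 CPM and *Siglech* at 0.49 CPM, so its r mainly describes *Tcf4*. The part of these cell types in the levels of the 10 genes was not tested.

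Genes outside the list that followed the 10 most closely included known targets of interferon. The 8 with the highest r to the mean of the 10 were *Oasl2* (r = 0.99), *Oas3* (0.94), *Rnf213* (0.93), *Rtp4* (0.93), *Usp18* (0.90), *Pml* (0.88), *Xaf1* (0.88), and *Parp12* (0.87), over 19 mice after group means were subtracted. *Oasl2* and *Oas3* are relatives of *Oas1a*, and *Usp18* removes ISG15 from proteins and dampens the receptor. Of all 17875 genes 1.4% had an r above 0.6, and so did 42 of 111 other tested genes of the pathway. The 10 genes themselves make up the mean and are not counted against that share. The 42 were 27 of 46 other effectors, 5 of 19 genes induced by interferon-γ, 4 of 16 sensors and adaptors, 3 of 13 inhibitors, 2 of 6 receptors, and 1 of 10 kinases and transcription factors.

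The rest of the pathway was read from lists ordered by role. Their counts are to be read against the shares of all genes called with fasting, which were 11.2% higher and 10.4% lower in *Nt*+/+ mice and 12.5% higher and 12.6% lower in *Nt*-/- mice. Interferon genes themselves had few counts: 15 of 21 had 0 counts in all 19 mice, 3 had 1 to 10 counts in all, and *Ifng* and *Ifnz* had 19 each. *Ifnk* alone could be tested, and its log2 fold change with fasting was −0.02 in *Nt*+/+ and 0.05 in *Nt*-/- mice. At this depth the interferons were not detectable in most libraries, which does not show that they are absent from the tissue.

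Receptor genes that passed the test were all higher after fasting. In *Nt*+/+ mice 3 of 6 rose and 0 fell, and in *Nt*-/- mice 5 rose and 0 fell, where 11.2% and 12.5% of all genes rose. *Ifnar2*, a chain of the type I receptor, went from 6.01 ± 0.663 to 9.87 ± 1.57 CPM in *Nt*+/+ mice (log2 fold change 0.71, SE 0.13, edgeR adjusted p = 0.000819) and from 6.23 ± 0.839 to 13.1 ± 1.84 CPM in *Nt*-/- mice (1.06, SE 0.14, adjusted p = 2.9e-05), with no overlap between fed and fasted mice in either genotype. *Ifnar1*, the other chain, rose by 0.37 and 0.44 and *Ifngr1*, of the interferon-γ receptor, by 0.25 and 0.42, and *Ifngr2* rose by 0.41 in *Nt*-/- mice.

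Kinases and transcription factors of the pathway, which act below the receptors or upstream of the interferon genes, fell in part. In *Nt*+/+ mice 6 of 10 kinases and transcription factors fell and 0 rose, and in *Nt*-/- mice 3 fell and 1 rose, where 10.4% and 12.6% of all genes fell. In females alone 1 of the 10 fell in *Nt*+/+ mice. *Tyk2* fell by 0.31 and 0.32 and *Irf3*, which switches on interferon genes, fell by 0.30 and 0.52 in *Nt*+/+ and *Nt*-/- mice. *Irf1* fell by 0.55 in *Nt*+/+ mice, *Irf8* fell by 0.34 and *Jak2* rose by 0.36 in *Nt*-/- mice, and the genes of the final complex on the list of 10, *Stat2* and *Irf9*, passed the test in neither genotype. The 1 that rose was lost without fed *Nt*-/- replicate 1 or 3 or fasted *Nt*-/- replicate 2.

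**Figure D4:**
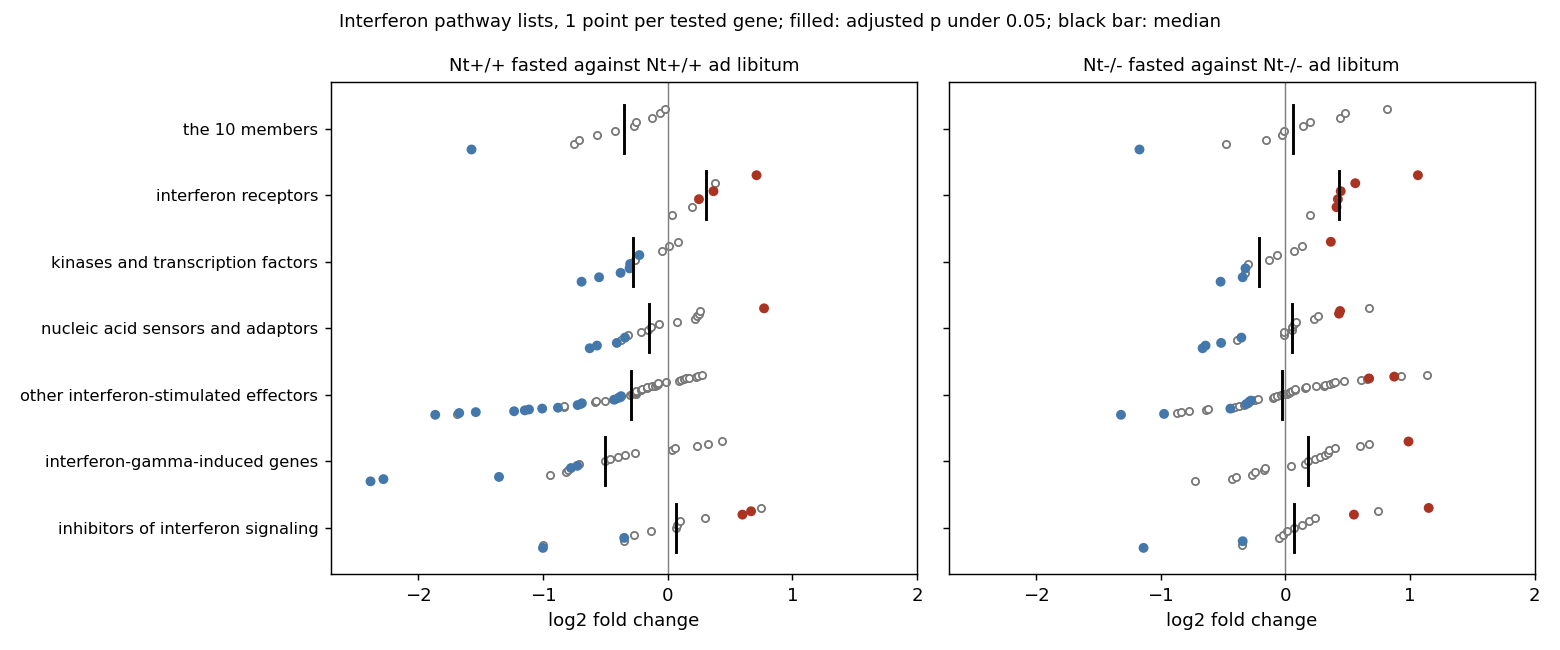
Log2 fold change with fasting in *Nt*+/+ (left) and *Nt*-/- mice (right) for the 10 genes and 6 other lists of the interferon pathway, with 1 point per tested gene, filled at an adjusted p under 0.05 by edgeR's quasi-likelihood test, and a black bar at the median. Receptors lay above 0 in both genotypes (medians 0.31 and 0.43), and other effectors had a median of −0.30 in *Nt*+/+ and −0.03 in *Nt*-/- mice.

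Sensors and adaptors were mixed. In *Nt*+/+ mice 4 of 16 fell and 1 rose, and in *Nt*-/- mice 4 fell and 2 rose. The rises, 1 and 2 of 16, were no more frequent than the 11.2% and 12.5% over all genes. *Mavs*, the adaptor that RIG-I acts through, fell by 0.57 and 0.64, *Ikbke*, a kinase of that route, by 0.41 and 0.52, and *Tlr3*, a sensor of double-stranded RNA, by 0.63 and 0.35. *Aim2*, a sensor of DNA, rose by 0.77 in *Nt*+/+ mice, *Trim25*, which helps to activate RIG-I, rose by 0.44 in *Nt*-/- mice, and *Cgas*, another sensor of DNA, fell by 0.66 in *Nt*-/- mice. With the replicate number as a block, 3 sensors and adaptors rose in *Nt*+/+ mice in place of 1. The 1 was 0 without fasted *Nt*+/+ replicate 2 or 4, 2 without fasted *Nt*+/+ replicate 5 or fasted *Nt*-/- replicate 1, and 3 without fed *Nt*+/+ replicate 1.

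Among 46 other effectors tested, 14 fell and 0 rose in *Nt*+/+ mice, and 6 fell and 2 rose in *Nt*-/- mice. Over all genes 10.4% fell in *Nt*+/+ mice and 12.6% in *Nt*-/- mice, so the 6 of 46 was near the share of all genes and the 2 of 46 was below the 12.5% that rose. *Ifitm3*, which blocks entry of viruses, went from 32.3 ± 7.48 to 14.6 ± 4.01 CPM in *Nt*+/+ (log2 fold change −1.15, SE 0.21, edgeR adjusted p = 0.000567) and from 25.4 ± 3.92 to 10.2 ± 2.57 CPM in *Nt*-/- mice (−1.32, SE 0.22, adjusted p = 0.000249). *Mx1* (−1.54), *Samd9l* (−0.72), and *Dtx3l* (−0.69) fell in *Nt*+/+ mice, and *Samd9l* (−0.44) also fell in *Nt*-/- mice. In *Nt*-/- mice *Isg20* (−0.97) fell, and *Cmpk2* (0.67) and *Sp100* (0.87) rose. The within-group r of these effectors with the mean of the 10 genes was 0.82 for *Dtx3l*, 0.46 for *Samd9l*, and 0.45 for *Cmpk2*. It was 0.12 for *Sp100*, 0.05 for *Ifitm3*, 0.02 for *Mx1*, and −0.38 for *Isg20*. The count of 6 in *Nt*-/- mice went down to 2 without fed replicate 1 or fasted replicate 4, to 3 without fed replicate 2, fasted replicate 3 or 5, or fasted *Nt*+/+ replicate 2. The 2 that rose became 4 without fed *Nt*-/- replicate 1 or fasted *Nt*-/- replicate 3, and 1 effector rose in *Nt*+/+ mice with the replicate number as a block.

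Genes induced mainly by interferon-γ fell in 5 of 19 cases in *Nt*+/+ mice (9 with the replicate number as a block) and rose in 0, while in *Nt*-/- mice 0 fell and 1 rose, against 10.4% of all genes lower in the first and 12.5% higher in the second. In *Nt*+/+ mice *Gbp6* fell by 1.35, *Ifi47* by 0.78, and *Irgm1* by 0.72 on the log2 scale, and in *Nt*-/- mice *Gbp9* rose by 0.99. *Tgtp1*, at 3.02 ± 2.16 and 0.627 ± 0.491 CPM, fell by 2.28 in *Nt*+/+ mice. It was called in 10 of the 11 alternative analyses that tested it. Stretches shared with near copies were counted only for the list of 10 genes, not for *Tgtp1*. The 5 became 3 without fed *Nt*+/+ replicate 1 or any of fasted *Nt*+/+ replicates 2 to 5, and the 1 became 3 without fed *Nt*-/- replicate 1. Of 13 inhibitors 2 rose and 2 fell in each genotype, near the shares of 10.4% to 12.6% over all genes: *Trex1*, a DNA-degrading enzyme, rose by 0.67 and 0.55 and *Rnf125*, which marks RIG-I for destruction, by 0.60 and 1.15, and *Socs1*, an inhibitor of JAK kinases, fell by 1.00 and 1.14 and *Ptpn2*, a phosphatase of the pathway, by 0.35 and 0.34. The rise counts of inhibitors became 1 without fed replicate 1 or 4 or fasted replicate 2 or 3 in *Nt*+/+ mice and without fed replicate 2 or 3 or fasted replicate 1, 4, or 5 in *Nt*-/- mice. The fall counts became 1 without fed replicate 1 or 4 or any fasted mouse in *Nt*+/+ mice and without fed replicate 1 or 2 or fasted replicate 1 or 3 in *Nt*-/- mice.

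By edgeR's quasi-likelihood test, neither genotype comparison nor the interaction called a gene of these 7 lists, and DESeq2's Wald test called 1 effector between fasted genotypes. At an unadjusted p under 0.05, 4 of 6 receptors and 8 of 46 other effectors differed between fasted *Nt*-/- and *Nt*+/+ mice, against 9.14% of all genes, and 5 of 19 genes induced by interferon-γ differed between fed mice, against 1.67%. Against fasted *Nt*+/+ mice, 6 of 6 receptors and 38 of 46 effectors were above 0 in fasted *Nt*-/- mice, where 47.3% of all genes were. Many of these effectors varied together from mouse to mouse, so their signs are not separate observations. Against fed *Nt*+/+ mice, 17 of the 19 genes induced by interferon-γ were below 0 in fed *Nt*-/- mice, where 50.4% of all genes were. Their median was −0.38. None of these 19 was called between fed mice. The part of the fed level in their counts with fasting was not tested. The counts given for each genotype, such as 14 and 6 effectors that fell, were not shown to differ between genotypes.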

How the data were processed

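The authors depleted ribosomal RNA, sequenced from a single end, used Trimmomatic 0.39 for trimming, and mapped reads to Ensembl transcripts of GRCm38 with RSEM, whose version and strand setting are not given in the sources used here. Without strand, reads from overlapping antisense genes cannot be told apart. They deposited an expected count for each gene, a value without normalization in which RSEM splits ambiguous reads between genes, and the deposited effective length in bases, another unit, was used for levels per kilobase. Normalized columns were not used.

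Expected counts were rounded, scaled by TMM, filtered by filterByExpr, and tested with edgeR 4.0.16 (R 4.3.3) by its quasi-likelihood test, with 1 coefficient per group, 15 residual degrees of freedom, a common dispersion of 0.0357, and Benjamini-Hochberg adjustment over 17875 genes at 0.05. CPM values use TMM library sizes, and correlations use log2 CPM with a prior count of 2. The fit was also run on simulated counts drawn independently for each mouse, so that run cannot speak to links between mice. Total counts of 9059457 to 35068711 per mouse limit the precision of low genes. The labels do not say which mice were littermates, and the main test treated all mice as independent. Same-numbered mice correlated in part, as given below, and the number entered only the alternative fits as a block.

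The genes and lists were chosen with earlier results of these data known. Genes named were the 10, *Nts*, up to 4 per list and comparison with the smallest adjusted p under 0.05, and the 8 most alike. *Ifnz*, *Ifng*, *Ifnk*, and markers named beside them were chosen after their values were seen, as were *Ifit3b*, *Oas1g*, *Ifit1bl2*, and *Rnf31*.

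Titles and file names carry a number that may link mice across groups. Deviations of same-numbered mice, by title, correlated above 0.1 in each of 5 pairs for fasting in *Nt*+/+ mice (0.165 to 0.499) and for the fasted genotypes (0.124 to 0.453), in 2 of 4 pairs for fasting in *Nt*-/- mice, and in 2 of 4 for fed genotypes. By file name they did so in all pairs of the 4 comparisons (0.117 to 0.499). What the numbers stand for is not stated.

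Alternatives were upper quartile factors, DESeq2 1.42.0 (its size factors or its Wald test), edgeR's likelihood ratio test, no filter or at least 10 counts in every mouse, either number as a block, sex as a covariate (which drops the mouse with no sex label), females alone, the groups compared alone, the mouse with disagreeing labels as *Nt*-/-, and each mouse left out.

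Promoter windows were RefSeq's for GRCm38.p6, and other counts of lists were tried under the same alternatives after the data were seen. A gene of the list of kinases and transcription factors is not reported here by name.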

Additional observations from a re-analysis of the deposited data

Results flagged for a closer look

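Fed *Nt*+/+ replicate 1 had *Oas1a* at 32.8 CPM, against 10.3–14.8 CPM in the other 4 mice of its group. Its gap to the nearest mouse was 0.801 of the whole range of the group, above the level that Dixon's test sets for 5 values. Of 40 combinations of gene and group examined, this was the 1 that passed, and chance alone passes about 5% of them. *Oas1a* shares 40.9% of its 100-base stretches with *Oas1g*. The same mouse was the highest of its group for *Stat2* (55.5 CPM), *Irf9* (38.9 CPM), *Irf7* (31.1 CPM), and *Isg15* (3.21 CPM), but not for *Ifit1*, where it was the lowest (6.96 CPM).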

How the results depend on the processing

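With fasting in *Nt*+/+ mice 1 of the 10 genes was called in each of 12 alternatives and with each mouse left out, and *Zbp1* ranged from −1.64 to −1.47 (adjusted p up to 0.0139) and from −1.70 to −1.47. With fasting in *Nt*-/- mice the count was 1 in each of 12 alternatives, although in females alone that gene was *Ifit1* (1.39) and not *Zbp1* (−0.88), and it was 0 to 1 with each mouse left out, 0 without fed *Nt*-/- replicate 1. The count was 0 in both genotype comparisons and in the interaction under every alternative run and with each mouse left out. *Isg15* was not tested with at least 10 counts in every mouse. The replicate block changed no call of the 10 genes.

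Signs turned only for differences that were not called, and the cause was not tested. With fasting in *Nt*-/- mice, *Stat2* (−0.01) was 0.0015 with DESeq2 size factors, 0.0062 with DESeq2's Wald test, 0.056 and 0.019 with the replicate block of the titles and of the file names, 0.086 with sex as a covariate, and 0.16 in females. *Ifit2* (−0.03) was 0.029 with the file-name block, 0.028 with sex, and 0.19 in females, and *Isg15* (−0.15) was 0.046 with sex and 0.33 in females. Between fed genotypes, *Ifit3* (0.09) was −0.051 and *Ddx58* (0.03) −0.0135 with the title block, and *Ddx58* was −0.0298 in females. Between fasted genotypes, *Ifit2* (−0.05) was 0.0042 in females, *Zbp1* (0.06) was −0.003 with the title block, and with the mouse of disagreeing labels as *Nt*-/- *Zbp1* was −0.12, *Stat2* −0.0024, and *Irf7* with fasting in *Nt*+/+ mice 0.0812.

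With each mouse left out, these signs turned within their ranges. With fasting in *Nt*+/+ mice they were *Ddx58* (−0.12 to 0.0151) and *Irf7* (−0.13 to 0.0814), and with fasting in *Nt*-/- mice *Ifit2* (−0.20 to 0.10), *Isg15* (−0.43 to 0.10), and *Stat2* (−0.14 to 0.10). Between fed genotypes they were *Ddx58* (−0.0101 to 0.0965), *Ifit3* (−0.0068 to 0.195), *Irf7* (−0.17 to 0.10), and *Oas1a* (−0.30 to 0.34), and between fasted genotypes *Ifit2* (−0.23 to 0.0831), *Oas1a* (−0.038 to 0.362), *Stat2* (−0.0079 to 0.225), and *Zbp1* (−0.18 to 0.22). In the interaction it was *Oas1a* (−0.14 to 0.50).

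Lists moved more. Over all genes, fasted genotypes gave 98 calls by DESeq2's Wald test and 41 by the likelihood ratio test in place of 1, and 1 other effector was called by the first. Females alone gave 1833 and 2318 genes with fasting in *Nt*+/+ and *Nt*-/- mice in place of 3862 and 4499. They also gave 1 kinase or transcription factor that fell in *Nt*+/+ mice in place of 6, and 1 and 3 receptors that rose in place of 3 and 5. Effectors that fell in *Nt*-/- mice were 3 with DESeq2 size factors, 2 with no filter, with sex, or with only the groups compared, 1 in females, and 10 with either block, with which 7 (titles) or 4 (file names) rose. Low counts limit *Isg15*, *Ifit2*, and *Ifit3* most.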
